A study of Rattus norvegicus with 20 samples.

Results

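Contused rats that swam were compared directly with rats whose spinal cord was completely transected, by RNA sequencing of the soleus. The comparison uses 8 of the 20 libraries in the series, 4 per group, assigned by their labels. These groups were picked as the farthest from uninjured muscle, so their differences from it are in part fixed by the choice. The swimming group were Sprague-Dawley rats that received a T2 contusion of 25 g-cm and swam on 5 days a week for 10 weeks, starting 2.5 weeks after injury, and gave muscle at 13.5 weeks. The transection group had a complete T2 transection, no exercise, and gave muscle at 8.5 weeks. The 4 uninjured, unexercised libraries, labelled 11.5 weeks, serve as a baseline, and 4 libraries each of unexercised contusion (11.5 weeks) and of contusion with shallow water walking (13.5 weeks) appear beside some results. All rats were kept in small cages from the fourth day of recovery. Injury, exercise and time after injury differ together between swimming and transection, so their parts cannot be told apart.

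The soleus is a postural muscle of the lower hind limb, built mostly of slow, oxidative fibres that are active whenever the animal stands. Its fibres depend on continuous nerve activity and load: after spinal injury they shrink and shift toward a faster type. A complete transection removes descending drive to the hind limb, while a contusion usually spares some tissue at the injury site, and swimming makes the hind limbs move with the body weight carried by water.

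Total counts ran from 21165832 to 30649862 in swimming libraries and from 31877886 to 36438046 in transection libraries, so depth differed with the group. Replicates are described as separate animals. The deposited table carries Ensembl identifiers, and 0 of its 24613 identifiers were paired with a gene symbol here. Markers of muscle fibres or of other cell types were therefore not used, and genes are described by level, direction and size. In whole muscle, fewer cells of a type and less RNA per cell cannot be told apart. On the first principal component of the 8 libraries, which held 45.9% of the variance, swimming libraries lay between 23.0 and 45.9 and transection libraries between -90.7 and -9.50. Transection library 3 stood apart at -90.7, the next being -31.4. Swimming library 2 stood apart on the second component, with 17.7% of the variance, at -68.1 against 3.77 to 28.9 in the other swimming libraries.

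The 2 groups differed widely. Of 13398 genes tested, 2090 were higher and 1845 lower after swimming than after transection (edgeR quasi-likelihood test, Benjamini-Hochberg adjusted p below 0.05), together 29.4% of the genes. The higher genes made up 15.6% and the lower genes 13.8% of those tested. In 25.2% of genes the 4 swimming and 4 transection libraries did not overlap. The same fit called 2702 genes for swimming against uninjured (20.2%), or 1477 without uninjured library 4, and 3795 for transection against uninjured (28.3%). For swimming against transection, log2 fold changes had a median standard error (SE) of 0.21. Without swimming library 2 and transection library 3 together, 1847 genes were higher and 1609 lower. With all 20 libraries thinned to the same total, 2051 were higher and 1776 lower.

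Among called genes, the higher ones differed by more than the lower ones. Among genes higher after swimming, 1036 differed by over 2-fold and 223 by over 4-fold, with a median log2 fold change of 1.00. Among genes lower after swimming, 206 differed by over 2-fold and 19 by over 4-fold, with a median of -0.61. The median over all tested genes was 0.00. Scaled by library totals alone, 4821 genes were higher and 258 lower, and the overall median moved to 0.42. Genes over 2-fold higher outnumbered those over 2-fold lower under each of the 20 settings run, at 812 to 2192 higher and 47 to 305 lower. A fit to the 8 libraries alone called 1389 higher and 911 lower genes.

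**Figure D1:**
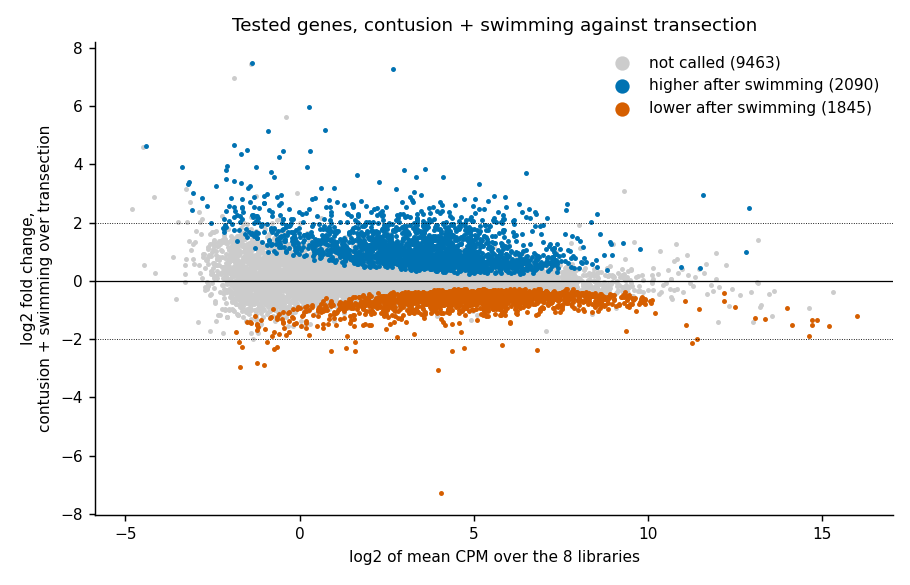
Each point is a tested gene, placed by the log2 of its mean CPM (normalised counts) over the 8 libraries and by its log2 fold change of contusion with swimming over transection. Dotted lines mark 4-fold; 223 higher genes lie past the upper line and 19 lower genes past the lower line among called genes.

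Most of the 10 most abundant transcripts of the muscle were at a lower level after swimming. The 10 genes with the highest mean over all 20 libraries were taken as a list, chosen from these libraries; 8 were lower after swimming than after transection, and the other 2 did not pass. Among all genes 13.8% were called lower, and the median log2 fold change was -1.34 in the list against 0.00 over all genes. The ranking mean includes the transection libraries, where a gene at a high level enters the list more readily, so the count and the median are in part fixed by the choice. Ranked on the 12 uninjured, contusion and walking libraries alone, a list added after seeing the data, 6 of the 10 genes were lower, 1 was higher and 3 did not pass, with a median log2 fold change of -1.27. Both lists share 8 genes. In muscle, transcripts at this level usually encode contractile proteins, enzymes of energy supply or mitochondrial proteins; which of these the 10 identifiers are was not read from the files. In each of the 8 genes all 4 swimming libraries lay below all 4 transection libraries, as they did in 11.9% of all tested genes and in 72.2% of the genes called lower. A lack of overlap goes with being called and is no separate result. Their log2 fold changes ran from -1.91 to -0.92, with edgeR adjusted p of 2.88e-06 to 5.52e-04.

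The most abundant gene held 38554, 38834, 37859 and 44887 CPM in swimming libraries 1 to 4, against 81328, 112357, 102040 and 73814 CPM in transection libraries 1 to 4. The groups did not overlap, and the transection libraries spread more widely. Its log2 fold change was -1.21 (edgeR adjusted p = 2.03e-04), and uninjured libraries lay between 43547 and 58817 CPM. The largest difference of the list was in the gene ranked 7 by abundance, at 10580, 10711, 11758 and 9528 CPM in swimming libraries, against 33206, 49107, 46042 and 31196 CPM in transection libraries. Every transection library exceeded every swimming library in this gene, by a log2 fold change of -1.91 for swimming over transection (edgeR adjusted p = 2.88e-06). Its uninjured libraries lay between 8846 and 14393 CPM, a range that takes in the 4 swimming libraries.

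Set against uninjured muscle, the same 10 genes had a median log2 fold change of -0.12 after swimming and 1.39 after transection. These comparisons share the uninjured libraries. The whole list of 10 took 20.7 ± 1.40% of all counts after swimming and 33.4 ± 2.94% after transection (SD, n = 4 each). It took 23.2 ± 2.23% in uninjured muscle and 27.1 ± 2.58% in unexercised contusion (SD, n = 4 each). The 8 lower genes were picked as called lower, which favours a gap in their share. Together, they took 15.2 ± 0.606% of all counts after swimming and 29.2 ± 3.15% after transection (SD, n = 4 each), and 16.0 ± 1.89% in uninjured muscle (SD, n = 4). By library the share of these 8 was 15.6, 15.1, 14.5 and 15.8% after swimming, against 28.2, 32.9, 30.3 and 25.5% after transection. It was 20.4 ± 2.53% in unexercised contusion and 17.6 ± 0.911% in contusion with walking (SD, n = 4 each). The swimming libraries differed little among themselves, and each transection library lay above every library of the other groups. When libraries were scaled by their totals alone, 8 genes of the list were again lower and 1 was higher. The list median was then -0.89, beside 0.42 for all genes.

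**Figure D2:**
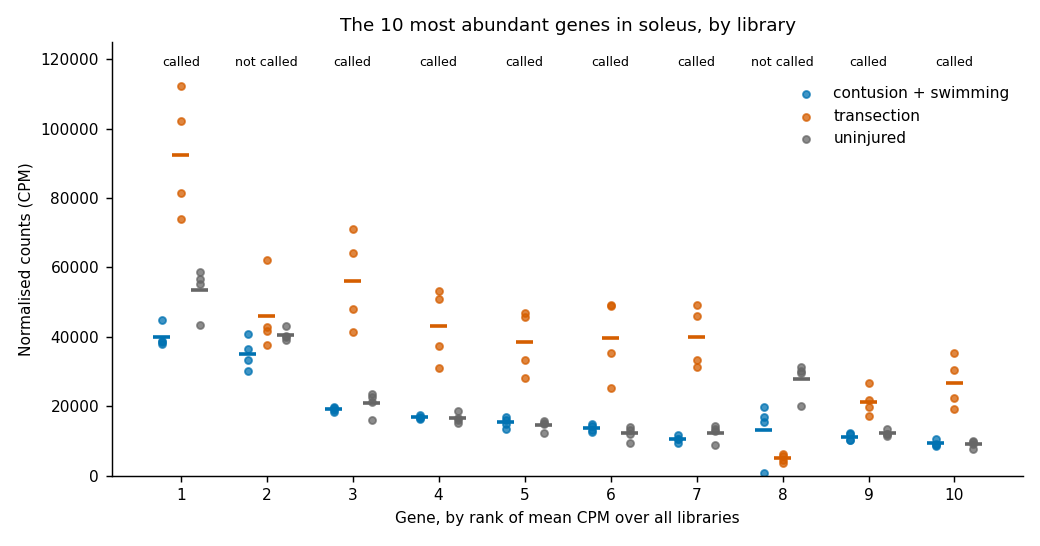
Normalised counts (CPM) are shown for the 10 most abundant genes in each swimming, transection and uninjured library, with bars at group means and the edgeR call for swimming against transection above each gene. In the 8 called genes all transection points lie above all swimming points; the gene ranked 8 runs the other way except in a single swimming library, at 728 CPM.

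Of the list, 2 genes did not pass. The gene ranked 2 held 36434, 33288, 40746 and 30142 CPM in swimming libraries and 37762, 41670, 62233 and 42740 CPM in transection libraries, so the groups overlapped, with a log2 fold change of -0.39 (SE 0.23, edgeR adjusted p = 0.209); the sign was positive when scaled by library totals alone (0.05). The gene ranked 8 went the opposite way to the 8 called genes in 3 libraries. It held 15518, 16999 and 19826 CPM in swimming libraries 1, 3 and 4 but 728 CPM in swimming library 2, against 3766, 6215, 4538 and 5650 CPM in transection libraries. Uninjured libraries held 20165 to 31384 CPM, above all swimming and transection libraries. Its log2 fold change was 1.40 (SE 0.52), just outside the threshold (edgeR adjusted p = 0.05002). Without swimming library 2 it was 1.79 (SE 0.22, edgeR adjusted p = 8.66e-06). Over its alternatives the adjusted p ran from 8.66e-06 to 0.192, the highest with the 8 libraries fitted alone. The call thus depended on the setting: it passed with DESeq2 (adjusted p = 0.0118) and not with a replicate block (edgeR adjusted p = 0.0889).

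The genes ranked 11 to 50 were less one-sided, while those ranked 51 to 200 that passed were mostly lower. These ranks come from the same mean over all 20 libraries, with the same limit as the list of 10. Of the genes ranked 11 to 50, 12 of 40 passed, a share near the 29.4% of all genes, with 5 higher and 7 lower and a median log2 fold change of -0.25. Of those ranked 51 to 200, 8 were higher, 50 lower (33.3%, against 13.8% of all genes) and 92 did not pass, with a median of -0.27. The genes ranked 11 to 50 took 23.8 ± 1.99% of counts after swimming and 22.5 ± 1.33% after transection (SD, n = 4 each). The 50 most abundant genes of each library's own ranking held 46.0 ± 2.52% of its counts after swimming and 57.0 ± 2.91% after transection (SD, n = 4 each). The 2 groups did not overlap, with 44.0 to 49.6% after swimming and 53.7 to 60.2% after transection. In an exact two-sided permutation test p was 0.0286, which is the lowest value possible with 4 libraries a side, and 0.0286 after adjustment over the 2 library measures tested. In uninjured libraries 1 to 4 this share was 43.9, 45.7, 46.6 and 45.7%, near the swimming values and below every transection library.

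More genes were detected after swimming. With every library thinned to 21165832 counts, 15594, 15478, 15613 and 15749 genes had a count in swimming libraries 1 to 4, against 15243, 14719, 13702 and 15125 in transection libraries 1 to 4. All swimming libraries lay above all transection libraries, by 911 genes on average (exact two-sided permutation p = 0.0286, the smallest possible). Without transection library 3 the difference was 579.5 genes, with p = 0.0571, the smallest that an exact test of 4 against 3 libraries allows. The thinned number was not taken for uninjured libraries, so it has no baseline here. Thinning made totals equal, but not the counts left for rare genes. Genes outside the 50 most abundant over all libraries took 55.8, 54.8, 55.2 and 56.2% of counts in swimming libraries. In transection libraries they took 45.6, 42.6, 41.0 and 46.9%. What part this had in the detected genes, here and below, was not tested. Over the whole table, 41 genes had a count in every swimming library and 0 in all transection libraries, with summed counts of 4 to 88 over the 4 swimming libraries. These genes were rare: their median sum was 10 counts. The reverse, a count in every transection library and 0 in all swimming libraries, held for 3 genes, with summed counts of 4 to 17. With at least 10 counts asked of every library of the group with counts, 0 genes met either pattern.

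Over all tested genes, direction went with abundance. Genes were sorted by mean level over all 20 libraries and split into 10 classes, as near to equal in size as possible. Class 10 takes in the abundant genes described above. The sorting mean includes the 8 compared libraries, with the same limit as for the list of 10. In class 1, the least abundant, 114 genes were higher and 35 lower after swimming, with a median log2 fold change of 0.23 over all genes of the class. In class 5, with a median of 9.11 CPM, 268 were higher and 147 lower. Class 10, with a median of 154 CPM, had 165 higher and 368 lower genes and a median log2 fold change of -0.16. The share of genes called higher peaked in class 5 at 20.0%, while the share called lower grew from class to class, to 27.5% in class 10. The signs of the class medians depend on the scaling: with library totals they were 0.63 in class 1 and 0.28 in class 10, beside 0.42 for all genes. With all libraries thinned to the same depth they were 0.26 and -0.16.

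In every class, most large differences were higher levels after swimming than after transection. They were not all gains over uninjured muscle. Of the 1036 genes over 2-fold higher, 353 were called higher and 35 lower after swimming than in uninjured muscle (edgeR). After transection, 607 of them were called lower and 4 higher than in uninjured muscle. Genes over 2-fold higher numbered 114 in class 1, 129 in class 5 and 43 in class 10, while genes over 2-fold lower numbered 34, 16 and 25. Class 6 had 112 over 2-fold higher and 9 over 2-fold lower. In class 1, 114 of 114 higher and 34 of 35 lower genes were over 2-fold, against 43 of 165 and 25 of 368 in class 10. Called genes of low abundance thus differed by more, and higher genes lay in the low classes more often than lower genes did. What part this had in the larger differences of the higher genes was not tested.

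**Figure D3:**
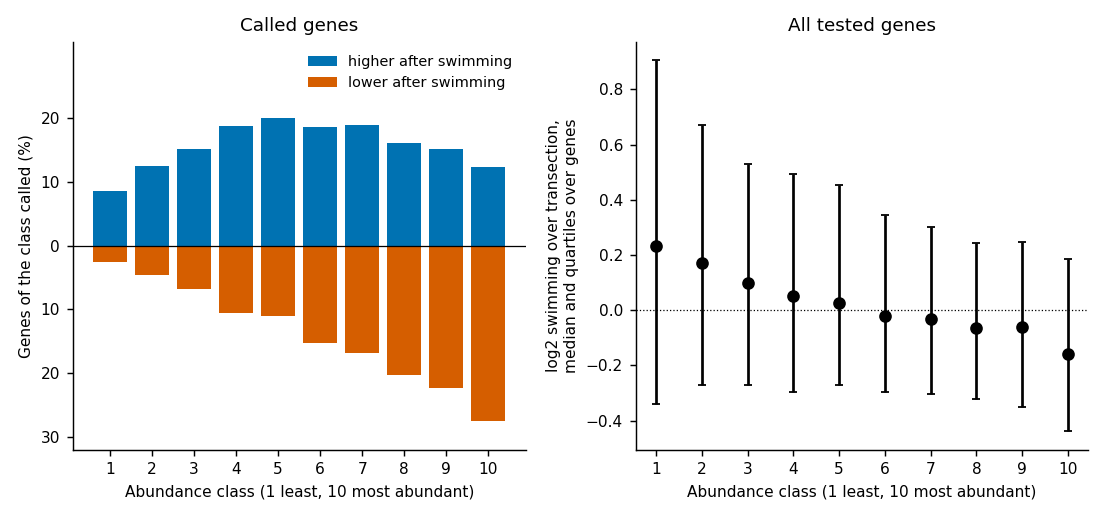
Left, the percentage of genes called higher (upward bars) or lower (downward bars) after swimming than after transection in 10 abundance classes; right, the median log2 fold change of each class with quartiles over genes. The medians run from 0.23 in class 1 to -0.16 in class 10.

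The levels of the called genes in each group were set beside uninjured muscle. For each library, the median over genes of log2 CPM minus the uninjured mean was taken. The genes were chosen by swimming against transection, which pulls these groups apart, so their medians are a description. Genes higher after swimming had medians of 0.31, 0.33, 0.38 and 0.47 in swimming libraries 1 to 4, against -0.43, -0.59, -0.98 and -0.47 in transection libraries. Every swimming library lay above the uninjured mean and every transection library below it, and transection library 3 lay farthest. In the contusion and walking libraries, which entered the fit but not the contrast, the group value was -0.02 after contusion and 0.07 after walking, and walking library 1 lay at 0.27.

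Genes lower after swimming had medians of -0.24, -0.18, -0.32 and -0.25 in swimming libraries, against 0.29, 0.41, 0.55 and 0.22 in transection libraries. All swimming libraries lay below the uninjured mean and all transection libraries above it. The group value was 0.03 after contusion and -0.06 after walking. Over all tested genes the value was 0.02 for swimming and 0.00 for transection. When libraries were scaled by their totals alone, the fitted median of all genes was 0.12 for swimming and -0.32 for transection against uninjured.

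**Figure D4:**
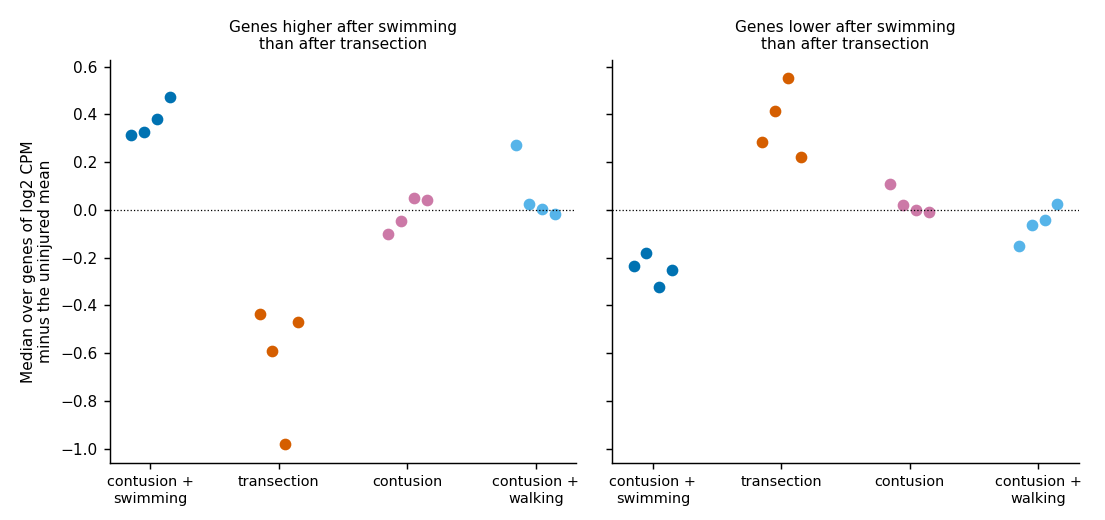
Each point is a library; the vertical axis is the median, over the 2090 genes higher (left) or 1845 genes lower (right) after swimming than after transection, of log2 CPM minus the uninjured mean. Swimming and transection libraries lie on opposite sides of 0, and every contusion and walking library lies nearer 0 than they do, the farthest being walking library 1 on the left, at 0.27.

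The genes higher after swimming took 12.4, 9.0, 12.8 and 14.8% of all counts in swimming libraries, against 4.81, 3.90, 3.39 and 5.27% in transection libraries. Those lower took 30.9, 30.9, 28.1 and 30.3% in swimming libraries, against 46.9, 51.4, 48.8 and 43.5% in transection libraries. Neither set overlapped between the groups, which the choice of genes favours.

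Distances between libraries were read as the median absolute difference in log2 CPM over tested genes. The 16 pairs of a swimming and a transection library averaged 0.47, with a range of 0.36 to 0.66. Pairs within the swimming group averaged 0.32 and within the transection group 0.31, so some pairs within a group, at up to 0.41 and 0.43, were farther apart than the closest pair between groups. Swimming and uninjured libraries averaged 0.40, and transection and uninjured libraries 0.44. Both groups were picked as the farthest from uninjured muscle, which favours large values here.

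Outside the abundant genes, 4 identifiers are named: the highest and lowest log2 fold changes among called genes that averaged 1 CPM or more over the 8 libraries and whose groups did not overlap. Their calls, lack of overlap and extreme fold changes were fixed by this choice and are no separate results. ENSRNOG00000002911 and ENSRNOG00000030022 averaged 0.0694 and 0.0288 CPM after transection, and ENSRNOG00000049067 averaged 0.933 CPM after swimming. Each of these reached 1 CPM only through its other group. ENSRNOG00000002911 had the highest log2 fold change. It held 0.365, 0.883, 43.0 and 6.54 CPM in swimming libraries 1 to 4, against 0.0970, 0.0364, 0 and 0.144 CPM in transection libraries 1 to 4. The groups did not overlap, but swimming library 3 held most of the 1273 counts of its group, while transection libraries held 9 counts in all. The log2 fold change of ENSRNOG00000002911 was 7.28 (SE 2.38, edgeR adjusted p = 0.0261), and the ratio of summed counts per library size was 143, and counting error alone allows 74.9 to 313 (95% exact limits). The call was lost without swimming library 3 (log2 fold change 5.04, edgeR adjusted p = 0.133), without transection library 1, 2, 3 or 4 (0.0567, 0.0658, 0.0682 and 0.0525), and with voom (3.84 and 0.294). Its level was uneven elsewhere too: contusion library 3 held 174 CPM and the other contusion libraries up to 0.962 CPM.

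ENSRNOG00000030022 was nearly silent after transection. It held 3.16, 0.309, 1.88 and 4.16 CPM in swimming libraries 1 to 4, against 0, 0, 0 and 0.115 CPM in transection libraries, where 4 counts came from library 4. Swimming library 2 was the lowest of its group and lay above all transection libraries, which the naming rule asks. The log2 fold change was 5.98 (SE 0.90, edgeR adjusted p = 6.30e-05). Without transection library 4 it was 9.10 (edgeR adjusted p = 1.77e-04), a value fitted against 0 counts that depends on the prior count and is no bound; over all alternatives it ran from 5.57 to 9.10. The ratio of summed counts per library size, 304 counts over 4, was 76.7, and counting error alone allows 29.6 to 283 (95% exact limits). In uninjured libraries ENSRNOG00000030022 stood at 1.35 ± 0.609 CPM (SD, n = 4), against which transection was lower (log2 fold change -5.16, edgeR adjusted p = 3.52e-04). Swimming against uninjured did not pass, at a log2 fold change of 0.82 (SE 0.57, edgeR adjusted p = 0.318).

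ENSRNOG00000007545 had the lowest log2 fold change. It held 1.25, 3.80, 7.68 and 1.09 CPM in swimming libraries, against 24.0, 41.4, 23.1 and 23.5 CPM in transection libraries. By the naming rule, every transection library lay above every swimming library. The log2 fold change was -3.05 (SE 0.71, edgeR adjusted p = 3.16e-03). Uninjured libraries held 9.85, 8.07, 6.61 and 45.6 CPM of ENSRNOG00000007545, with library 4 in the range of the transection group. Against them swimming was lower (log2 fold change -2.37, edgeR adjusted p = 0.0220) and transection did not pass (0.68, SE 0.65, edgeR adjusted p = 0.466). Contusion and walking averaged 3.57 ± 1.89 and 3.73 ± 3.34 CPM (SD, n = 4 each), levels within the range of the swimming libraries.

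ENSRNOG00000049067 was the steadiest of the 4. It held 1.19, 0.883, 0.768 and 0.894 CPM in swimming libraries, against 4.01, 5.06, 6.49 and 4.67 CPM in transection libraries. Both groups were tight, and their separation was part of the naming rule. The log2 fold change was -2.42 (SE 0.26, edgeR adjusted p = 1.80e-06). Uninjured libraries averaged 2.60 ± 0.840 CPM (SD, n = 4), between the 2 groups. Swimming was lower than uninjured (log2 fold change -1.47, edgeR adjusted p = 1.30e-03) and transection higher (0.95, edgeR adjusted p = 5.57e-03). Contusion stood at 2.63 ± 0.626 CPM and walking at 1.81 ± 0.235 CPM (SD, n = 4 each).

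**Figure D5:**
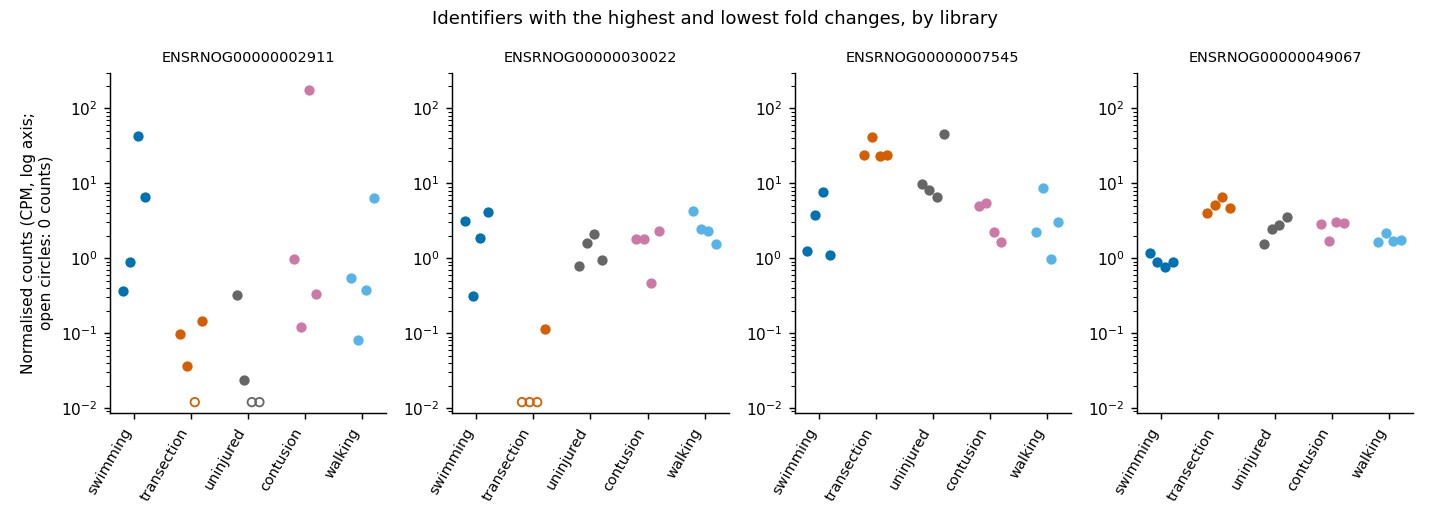
Normalised counts (CPM, log axis) of the 4 named identifiers are shown per library in the swimming, transection, uninjured, contusion and walking groups; open circles mark libraries with 0 counts. ENSRNOG00000049067 separates the groups most tightly, while ENSRNOG00000002911 ranges over orders of magnitude within the swimming group.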

How the data were processed

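Soleus RNA of 20 rats was sequenced from stranded poly-A libraries, per the labels' protocols. The deposited values were raw whole-number counts per Ensembl gene, made by the authors without normalisation. Per the submitters' processing notes, FastQC 0.10.1, HTSeq and the rn6 build were used. For the aligner, annotation and strand setting the entry is: not given in the sources used here. Overlapping or near-identical genes may share counts. Columns were matched to libraries by label; 0 rows named no gene.

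Counts were tested with edgeR 4.0.16 in R 4.3.3: trimmed mean of M values scaling, filterByExpr at a minimum count of 10 and 1 fit to all 20 libraries with 15 residual degrees of freedom. SE was the log2 fold change over the square root of F, with a prior count of 0.125; log2 CPM used a prior count of 2. Library measures had exact permutation tests (scipy 1.17.1); figures used matplotlib 3.10.9. In counts simulated for 13398 genes, 200 were changed in the swimming group. The edgeR test of swimming against transection found 17.9% of the genes changed 1.5-fold, 67.2% of those changed 2-fold and 86.4% of those changed 4-fold. It made 5 false calls. Apart from the 200 genes, all groups were given the same mean profile and the same spread. In the real counts 29.4% of genes were called and the abundant genes took unlike shares of the counts, so these rates may not carry over.

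Members and lists were chosen with earlier results of these data known. The 38 gene lists need symbols: of 47357 reference genes, 0 carry an Ensembl identifier, so they were not applied. The naming rule for that case gives the 2 highest and 2 lowest identifiers among called, non-overlapping genes that average 1 CPM or more. Alternatives were other scalings and filters, a replicate block, the compared groups alone, DESeq2 1.42.0, voom in limma 3.58.1 and libraries left out. The list of 10 abundant genes and its other ranking, thinning and the fit without those genes were added after seeing the data. Pairs within groups differed by a chi-square of at least 45.9 per degree of freedom, and all libraries were kept as separate.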

Additional observations from a re-analysis of the deposited data

Results flagged for a closer look

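Among 68 groups of 4 values examined (library measures, the named identifiers and the abundant genes), 10 had a single outlying library. About 3.4 would be expected if all values were independent and normally distributed, which they are not. Some measures overlap, some values lie near 0, and the named identifiers were picked as extremes. The excess over 3.4 is therefore not read as a result. ENSRNOG00000002911 stood at 43.0 CPM in swimming library 3, the next being 6.54, at 6.46 CPM in walking library 4 (next 0.548), at 174 CPM in contusion library 3 (next 0.962) and at 0.319 CPM in uninjured library 1 (next 0.0234). ENSRNOG00000030022 stood at 0.115 CPM in transection library 4 and 0 in the others. ENSRNOG00000049067 was lowest in contusion library 2, at 1.70 CPM (next 2.84). ENSRNOG00000007545 was highest in transection library 2, at 41.4 CPM (next 24.0), and in uninjured library 4, at 45.6 CPM (next 9.85). The most abundant gene was highest among swimming libraries in library 4, at 44887 CPM (next 38834). The gene ranked 8 by abundance was lowest among uninjured libraries in library 1, at 20165 CPM (next 29544). The difference between the contused swimming group and transection, each set against uninjured, is by construction the direct contrast. Its 3935 genes (edgeR) are those given above and no further result.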

How the results depend on the processing

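The number of genes called for swimming against transection was 3935. It stayed within 1.5 times that number under 18 of 19 alternatives, by a rule that scores the total and not the direction or the genes. Scaled by library totals alone, 5079 genes were called, 4821 higher and 258 lower, and 2348 of them were among the 3935. With the compared groups alone, a fit to 8 libraries, 2300 were called. Such fits gave 1833 genes for swimming and 3345 for transection against uninjured, and the reason for the drops was not tested. With 1 library left out, swimming against transection gave 3078 to 4150. Swimming against uninjured gave 2702 called genes, and 1477 to 2571 with 1 library left out, the lowest without uninjured library 4. Transection against uninjured gave 3795, and 3062 to 3636. The difference in the share of the 50 most abundant genes was -10.95 percentage points, and -12.1 to -9.88 with 1 library left out. The difference in detected genes was 911, and 579.5 to 1093 with 1 library left out; without thinning it was 781 (exact permutation p = 0.0571). Tests of 3 against 4 libraries cannot go below 0.0571. ENSRNOG00000030022, ENSRNOG00000007545 and ENSRNOG00000049067 kept their direction and call under each alternative that gave an adjusted p, with edgeR, DESeq2 or voom adjusted p of at most 4.95e-03, 0.0129 and 5.18e-04. DESeq2 gave no adjusted p for ENSRNOG00000002911 and ENSRNOG00000007545. ENSRNOG00000002911 lost its call under 6 of 18 alternatives, over which the adjusted p ran from 0.0140 to 0.294. With the replicate number as a block 3782 genes were called, and no call of a named identifier changed; the labels do not say that a number is shared between groups, same-numbered libraries correlated at -0.09 to 0.08, and 0 of 4 matched their own number best. The block gave 2507 genes for swimming and 3694 for transection against uninjured. Among the 10 most abundant genes 8 were lower under each of the 19 settings that kept them, and 0 or 1 was higher. Leaving these 10 genes out gave 3906 called genes and thinning all libraries gave 3827. Depth limits what can be said of rare genes: 3 counts over a group correspond to about 0.026 CPM.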

Other observations

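The spread between rats was of similar size in both groups. The median over genes of the SD of log2 CPM was 0.29 after swimming and 0.28 after transection, against 0.24 in uninjured muscle. Without swimming library 2 it was 0.25, and without transection library 3 it was 0.20. In unexercised contusion the value was 0.22 and in contusion with walking 0.26, and the fit to all 20 libraries took in these groups.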
